A study of Rattus norvegicus with 6 samples.

Results

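A set of 4 miRNAs known as abundant in mesenchymal stem cells (MSCs) and in their vesicles, miR-22-3p, miR-222-3p, miR-221-3p and miR-31a-5p, was followed in rat MSC exosomes. They were taken by exact name from the 763 mature miRNAs listed, and all 4 had a row. Exosomes, small vesicles that cells release, were collected from the culture supernatant with a commercial isolation reagent, and their small RNA was sequenced. One group of 3 libraries came from wild-type RBMSC cells pretreated with 200 µM nicorandil for 24 h, and the other group of 3 from wild-type RBMSC cells that received no pretreatment. Nicorandil, a drug against angina, is both a nitric oxide donor and an opener of ATP-sensitive potassium channels. Whether the libraries within a group stem from separate cultures is not stated in the labels. The p-values therefore set a group difference only against the spread among these samples, and that spread may be technical. The comparison asks which of these miRNAs differ in exosomes after the pretreatment.

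A miRNA is cut from a hairpin transcript and binds mRNAs mainly through its seed, bases 2 to 8 from its 5′ end. The hairpins of miR-221 and miR-222 lie beside each other and are known, in human and mouse, to come from a shared primary transcript. Both mature miRNAs are known in human cells to repress the cell cycle inhibitor p27 and the receptor Kit, and they are also expressed in endothelial and smooth muscle cells. miR-22 is known from heart and skeletal muscle as well as from MSCs, and miR-31 is known from work on how MSCs form bone.

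The mature sequences show which of the 4 can bind through the same seed. They are from RefSeq (GRCr8), written 5′ to 3′ with the seed in capitals.
miR-22-3p: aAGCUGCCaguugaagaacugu
miR-222-3p: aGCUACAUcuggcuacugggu
miR-221-3p: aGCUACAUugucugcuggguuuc
miR-31a-5p: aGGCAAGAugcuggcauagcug
The first 8 bases of miR-221-3p and miR-222-3p are identical, and 11 of the 21 positions compared without gaps match. Among the 693 mature rat miRNAs in that RefSeq table no other miRNA has the seed of this pair, and none shares the seed of miR-22-3p or of miR-31a-5p. The genes of the pair, Mir222 and Mir221, lie on the plus strand of chromosome X, and no gene is annotated wholly between them. Mir22 is on the plus strand of chromosome 10 and Mir31 on the minus strand of chromosome 5.

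Sequencing depth was low and unequal. The nicorandil libraries held 16628, 16324 and 8426 miRNA reads and the untreated libraries 2224, 2212 and 2338, a 6.11-fold difference in the summed reads. These reads were recovered from the deposited normalized values. Where no read was found, up to 3 reads remain possible, or a share of at most 0.018%, 0.0184% and 0.0356% in the nicorandil libraries and of at most 0.135%, 0.136% and 0.128% in the untreated libraries. Without molecular identifiers PCR reads are not separate molecules, and these limits and all 95% Wilson intervals therefore cover counting error only. The 6 markers of MSCs (miR-21-5p, miR-143-3p, miR-145-5p, miR-214-3p, miR-199a-3p and miR-199a-5p) all had reads in the nicorandil group. In the untreated group miR-145-5p had none. The list took 24.8% to 29.6% of nicorandil and 25.7% to 26.5% of untreated reads. Most of this was miR-143-3p alone, with mean shares of 24.1% and 22.55%. Markers of other cells were present too. The 3 liver and gut markers took 0.463% to 0.617% of nicorandil and 1.44% to 2.61% of untreated reads, and the 6 blood cell markers 0.263% to 0.415% and 0.678% to 0.854%. Of the 2 endothelial markers miR-126a-5p was at 0, and the list took 0.0301% to 0.0356% of nicorandil and 0.181% to 0.36% of untreated reads. Of the 7 epithelial markers miR-203a-3p was at 0, and the list took 0.0237% to 0.0301% and 0.181% to 0.385%. The sum of each of these 4 lists was thus lower in all nicorandil libraries, and its part in the results was not tested. Single markers did not all follow the sums. In the limma test given below, 3 of 3 tested liver and gut markers were called lower, and 1 of 3 blood cell markers. Of the tested endothelial and epithelial markers 1 of 1 and 1 of 2 were called lower. The 4 neuronal markers, with miR-124-3p and miR-9a-5p at 0, overlapped at 2.01% to 2.56% and 2.14% to 2.98%. Nearly all of this was miR-128-3p, with mean shares of 2.233% in nicorandil and 2.445% in untreated exosomes. Of the 6 muscle markers 4 were at 0 (miR-1-3p, miR-133b-3p, miR-206-3p and miR-208a-3p), and the list took 0% to 0.012% of nicorandil and 0% of untreated reads. More vesicles from a cell type and more copies per vesicle cannot be told apart in these libraries.

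The 4 miRNAs were very unequal in level. miR-22-3p was the only one near the abundant end, at rank 21 of 243 miRNAs with a read in nicorandil exosomes and 19 of 146 in untreated exosomes, by mean share of reads. miR-222-3p was at ranks 54 and 73, and miR-221-3p at ranks 66 and 91. miR-31a-5p was at rank 209 in nicorandil exosomes and had no read in untreated exosomes. Together the 4 took 1.03%, 1.09% and 0.938% of the reads in the nicorandil libraries, and 1.21%, 1.09% and 1.16% in the untreated libraries. The groups overlapped in this sum (two-sided exact permutation p = 0.2, 0.4 adjusted over the 6 shares and ratios compared).

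**Figure D1:**
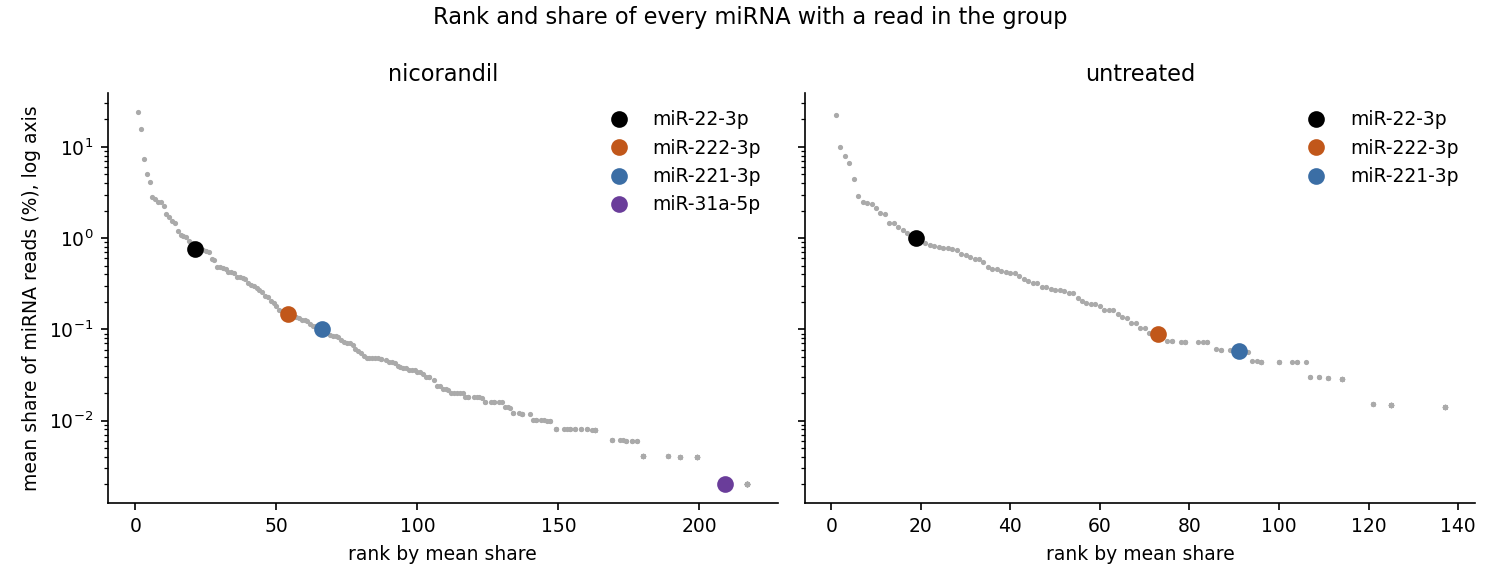
Mean share of all miRNA reads (percent, log axis) against rank for every miRNA with a read in the group, with nicorandil exosomes on the left and untreated exosomes on the right. miR-22-3p lies at rank 21 and 19, miR-222-3p at 54 and 73, and miR-221-3p at 66 and 91, while miR-31a-5p appears at rank 209 in nicorandil exosomes only.

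None of the 3 members that could be tested passed the threshold between the groups. The test was limma on log2(normalized reads + 1) for the 121 miRNAs with a mean of at least 1, at a Benjamini-Hochberg adjusted p of 0.05. miR-31a-5p did not reach that mean. In the same test 21.5% of all tested miRNAs passed, 14.0% higher and 7.44% lower. No member had an unadjusted p under 0.05 in this fit, in the quasi-likelihood test of edgeR (0 of 3) or in DESeq2 (0 of 4). In limma miR-222-3p had an unadjusted p of 0.0488 with the replicate block, 0.042 on TMM-scaled reads and 0.0249 without nicorandil replicate 2, and miR-221-3p had 0.0316 without untreated replicate 3.

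miR-22-3p supplied most reads of the 4. It had 133, 135 and 57 reads in the nicorandil libraries, and 25, 21 and 22 in the untreated libraries. As normalized reads this was 49.9, 54.1 and 43.6 with nicorandil, against 48.0, 45.8 and 46.2 without. The groups overlapped, since nicorandil replicate 3 was below every untreated library and the other nicorandil libraries were above. The means were 49.2 ± 5.25 and 46.7 ± 1.19 (SD, n = 3 each). The log2 fold change was 0.07 (SE 0.19, 95% interval -0.34 to 0.48, limma adjusted p = 0.865).

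As a share of all miRNA reads, miR-22-3p pointed the other way. It took 0.80%, 0.827% and 0.677% of the nicorandil libraries, and 1.12%, 0.949% and 0.941% of the untreated libraries. All 3 nicorandil shares were below all untreated shares. The difference in mean share was -0.237 percentage points, with p = 0.1 in a two-sided exact permutation test, the smallest p possible with 3 against 3, and 0.3 adjusted over the 6 quantities. Shares of 30.6% of the tested miRNAs were likewise separated between the groups, in either direction. Only 9.09% were separated with nicorandil higher, so most separated shares were lower with nicorandil, as for miR-22-3p. The Wilson intervals of single libraries overlapped, for example 0.676% to 0.947% in nicorandil replicate 1 and 0.622% to 1.42% in untreated replicate 3.

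The direction of miR-22-3p differed between scalings. Its log2 fold change was 0.07 on TMM-scaled reads, -0.014 under upper-quartile scaling, -0.16 under median-of-ratios scaling and -0.38 under library totals, and none of these passed (limma adjusted p of 0.298 to 0.992). Over the 121 tested miRNAs the median was 0.23 on the deposited values and -0.12 under library totals, a shift of -0.35. Under each of the 5 scalings, deposited values included, miR-22-3p lay below that median.

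**Figure D2:**
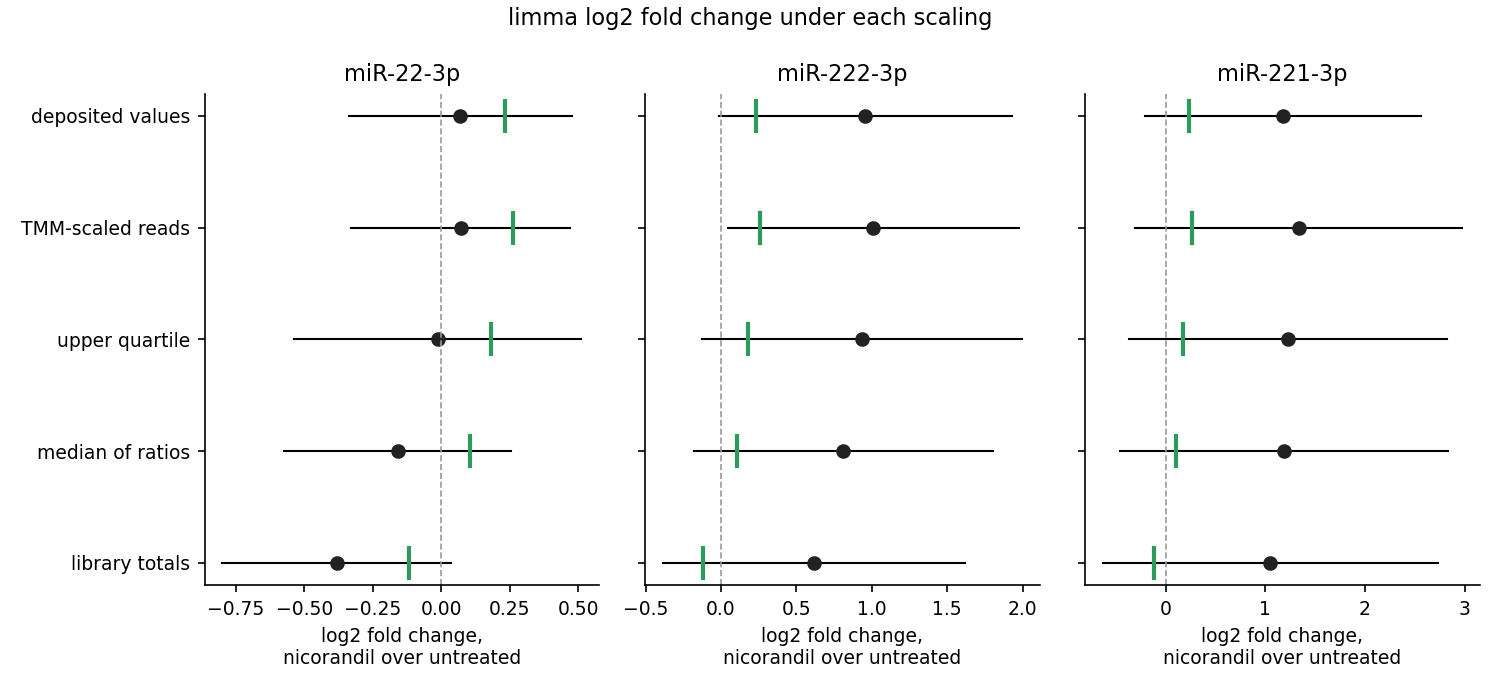
limma log2 fold change of nicorandil over untreated exosomes (points) with its 95% interval (lines) for the 3 tested miRNAs under 5 scalings, each panel with its own axis. Green ticks mark the median of all 121 tested miRNAs: miR-22-3p runs from 0.07 on the deposited values to -0.38 with library totals, while miR-222-3p and miR-221-3p stay above 0.

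miR-222-3p was the one member whose groups were separated on both scales, on few untreated reads. It had 26, 18 and 15 reads in the nicorandil libraries and 2 in each of the untreated libraries. Normalized reads were 9.91, 6.32 and 11.8 with nicorandil, against 3.99, 4.35 and 4.24 without. Every nicorandil library was above every untreated one, as held in either direction for 28.1% of the tested miRNAs and in the upward direction for 17.4%. The means were 9.35 ± 2.79 and 4.19 ± 0.186 (SD, n = 3 each), and the log2 fold change was 0.96 (SE 0.46, 95% interval -0.02 to 1.93, limma adjusted p = 0.19).

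Its shares were 0.156%, 0.11% and 0.178% in the nicorandil libraries, and 0.0899%, 0.0904% and 0.0855% in the untreated libraries. These did not overlap either, as held upward for 9.09% of the tested miRNAs (two-sided exact permutation p = 0.1, the smallest possible, and 0.3 adjusted). With 2 reads, an untreated library has a wide interval: 0.0248% to 0.329% in untreated replicate 2, which contains all 3 nicorandil shares. Over the groups, 59 nicorandil and 6 untreated reads gave pooled shares of 0.143% (Wilson 0.111% to 0.184%) and 0.0886% (0.0406% to 0.193%), and these intervals overlap. The nicorandil libraries differed among themselves by more than counting error, so pooled intervals do not cover the spread between libraries. The SD over the untreated libraries, each with 2 reads, is smaller than the counting error that their Wilson intervals show.

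miR-221-3p, its cluster partner with the same seed, was more scattered. It had 12, 24 and 7 reads in the nicorandil libraries and 0, 1 and 3 in the untreated libraries. Normalized reads were 3.58, 10.8 and 5.25 with nicorandil and 0.367, 2.42 and 5.24 without. The authors' adjustment lists untreated replicate 1 at 0.367 although it held no read of this miRNA. The groups overlapped: untreated replicate 3 was above nicorandil replicate 1 and close to nicorandil replicate 3. The means were 6.54 ± 3.78 and 2.67 ± 2.44 (SD, n = 3 each), with a log2 fold change of 1.18 (SE 0.65, 95% interval -0.20 to 2.56, limma adjusted p = 0.264).

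The fold of miR-221-3p rested strongly on single libraries. Without untreated replicate 1 it was 0.59, without nicorandil replicate 2 it was 0.80, and without untreated replicate 3 it was 1.69 (limma adjusted p = 0.676, 0.617 and 0.132). Its shares were 0.0722%, 0.147% and 0.0831% in the nicorandil libraries and 0%, 0.0452% and 0.128% in the untreated libraries (two-sided exact permutation p = 0.4, 0.6 adjusted). The pooled shares were 0.104% (Wilson 0.0772% to 0.14%) from 43 nicorandil reads and 0.059% (0.023% to 0.152%) from 4 untreated reads.

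The counted ratio of the 2 miRNAs of the cluster varied between libraries, on few reads. Their Wilson intervals overlapped in each library, and whether the ratio was constant was not tested. miR-222-3p had more reads than miR-221-3p in 4 of the 6 libraries, and fewer in nicorandil replicate 2 and untreated replicate 3. The log2 ratio of miR-221-3p to miR-222-3p, with 0.5 added to each count of reads, was -1.08, 0.41 and -1.05 in the nicorandil libraries and -2.32, -0.74 and 0.49 in the untreated libraries. The groups overlapped widely (difference of means 0.28, two-sided exact permutation p = 1). Within each group their shares overlapped, so the order of this pair was not separated beyond the spread. In each library miR-22-3p was above both, with a mean share 5.18-fold that of miR-222-3p in nicorandil and 11.3-fold in untreated exosomes.

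miR-31a-5p was almost undetected. A single read, in nicorandil replicate 2, was found among the 48152 reads of all 6 libraries. Its share there was 0.00613% (Wilson 0.00108% to 0.0347%). With 0 reads, the limit of 3 reads allows a share of up to 0.018% and 0.0356% in the other nicorandil libraries. In the untreated libraries it allows up to 0.128% to 0.136%. The Wilson upper limits of these zeros are higher, at 0.0231% and 0.0456% in nicorandil and 0.164% to 0.173% in untreated libraries. In each nicorandil library the share of miR-31a-5p lay below that of miR-221-3p, although their Wilson intervals overlapped in replicate 3. In the untreated libraries the depth does not separate it from miR-221-3p or miR-222-3p. The authors' deposited table gives it a log2 fold change of 1.38 with an unadjusted p of 1, which rests on that 1 read.

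**Figure D3:**
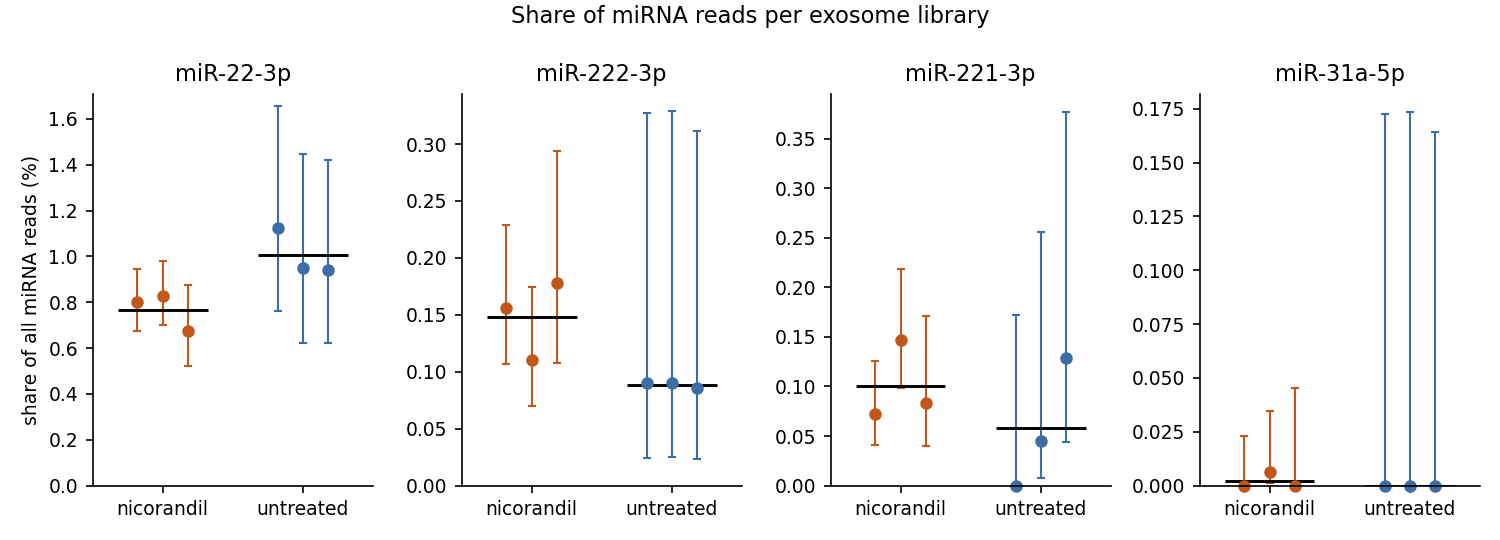
Share of all miRNA reads (percent) in each of the 3 nicorandil and 3 untreated libraries, with 95% Wilson intervals (bars) and the group mean (black line), and with a separate axis for each miRNA. miR-22-3p was lower and miR-222-3p higher in all nicorandil libraries, miR-221-3p overlapped, and miR-31a-5p had 1 read in all, while the intervals of the shallow untreated libraries are wide throughout.

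The opposite arm of a hairpin can also be loaded. Loading was not measured here, but reads of the opposite arm were common for miR-22. The Mir22 hairpin (RefSeq, GRCr8, 95 bases) is shown with both mature arms in capitals, miR-22-5p first and miR-22-3p second, since both gave reads in every library.
Mir22: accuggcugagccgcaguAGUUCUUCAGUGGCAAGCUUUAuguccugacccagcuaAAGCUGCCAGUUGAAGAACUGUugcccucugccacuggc
miR-22-5p had 36, 26 and 10 reads in the nicorandil libraries and 6, 3 and 2 in the untreated libraries. It made up 21.3%, 16.1% and 14.9% of the miR-22 reads of both arms with nicorandil, and 19.4%, 12.5% and 8.33% without, so the groups overlapped. Pooled, it was 72 of 397 nicorandil reads (18.1%, Wilson 14.7% to 22.2%) and 11 of 79 untreated reads (13.9%, 7.96% to 23.2%). Its own log2 fold change was 0.45 (SE 0.43, limma adjusted p = 0.629).

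**Figure D4:**
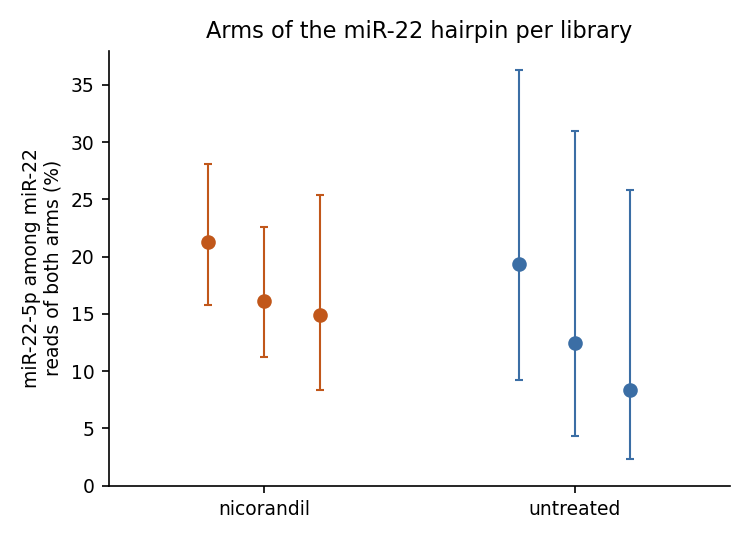
Percent of miR-22-5p among the reads of both miR-22 arms in each library, with 95% Wilson intervals. The nicorandil libraries lie between 14.9% and 21.3% and the untreated libraries between 8.33% and 19.4%, with overlapping intervals.

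Opposite arms of the other hairpins were close to 0 and none was tested. miR-221-5p had 3 reads, all in nicorandil replicate 3, miR-31a-3p had 2, both in nicorandil replicate 2, and miR-222-5p had 1, in nicorandil replicate 1. The untreated libraries held no read of these 3 arms. Both arms of miR-31a were thus read in the same library only.

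Neighbours in level place the tested members among all miRNAs. By normalized reads over the 6 libraries miR-22-3p averaged 47.9 and stood between miR-99b-5p at 51.1 and miR-674-3p at 47.7. miR-222-3p averaged 6.77, between miR-199a-5p at 6.84 and miR-148b-3p at 5.39. miR-221-3p averaged 4.61, between miR-23b-3p at 4.74 and miR-218a-5p at 4.46.

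The profiles most like each member were ranked by Pearson's r of log2(normalized reads + 1) over the 6 libraries, among miRNAs with a mean of at least 10. These values share libraries and the depth difference between the groups, and for miR-221-3p and miR-222-3p they rest on few reads, so they are a description. miR-22-3p was most like miR-125b-5p (r = 0.90), miR-27b-3p (0.88) and miR-181a-5p (0.87). miR-222-3p was most like miR-99b-5p (r = 0.96), miR-320-3p (0.93) and miR-674-3p (0.90). miR-221-3p was most like miR-28-3p (r = 0.92), miR-30d-5p (0.89) and miR-92a-3p (0.88). miR-31a-5p, with 1 read, has no profile to compare.

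Of 10 other miRNAs typical of MSCs, all were tested, 4 were higher with nicorandil, none was lower and 6 did not pass (limma), beside 14.0% higher and 7.44% lower over all tested miRNAs. The median log2 fold change of the 10 was 0.59, beside 0.23 over all tested miRNAs. The 4 were miR-100-5p, miR-21-5p, miR-145-5p and miR-143-3p, of which miR-143-3p, a mesenchymal and smooth muscle miRNA, had 1541 ± 160 normalized reads with nicorandil and 1050 ± 84.1 without (SD, n = 3 each; log2 fold change 0.55, SE 0.11, limma adjusted p = 0.00182). Of the 4, miR-145-5p was without reads in all untreated libraries, had 46 in the nicorandil libraries, and so reached the mean of 1 only through the nicorandil group. Its nicorandil shares of 0.0831% to 0.141% lie at about the share that 0 reads allow in an untreated library, so nothing is drawn from its call. The shares of miR-100-5p, miR-21-5p and miR-143-3p overlapped between the groups. Because the list was chosen with earlier results of these data known, its calls and its median are a description only. The count depended on the processing: it was 1 (miR-145-5p) with library totals, median of ratios, upper quartile or without nicorandil replicate 2, 1 (miR-143-3p) with edgeR after filterByExpr or DESeq2, and 2 without nicorandil replicate 1. It was 3 with a mean of at least 10 or without untreated replicate 3. It rose to 5, with miR-125b-5p added, with no filter, with the replicate block, without nicorandil replicate 3 or without untreated replicate 1. With library totals miR-24-3p was also called, as lower. By mean normalized reads 4 of the 10 were above miR-22-3p and 9 were above miR-222-3p.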

How the data were processed

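Small RNA of rat MSC exosomes was sequenced single-end, 3 libraries per group. The submitters' processing notes name FastQC, Bowtie and edgeR; their versions, the genome build and the annotation were not given in the sources used here, per the labels. The deposited values are a normalized read signal with the form of edgeR pseudo-counts, that is, reads adjusted by the authors to 1 common library size. Inverting that adjustment (dispersion 0.0272) gave whole reads for 100% of the 763 miRNAs (relative tolerance 1e-05), and recomputing the values from them differed by at most 4.7e-07. The authors' log2 fold change and unadjusted p-value are named as such, per the file headers.

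limma 3.58.1 (R 4.3.3) with an intensity trend was run on log2(value + 1), without covariates, for the 121 miRNAs whose mean was at least 1. Fold changes on this scale understate those of miRNAs with few reads. Shares and the ratio of recovered reads were compared with two-sided exact permutation tests (scipy 1.17.1). Alternatives were pseudocounts of 0.1 and 10, other filters and scalings, edgeR 4.0.16, DESeq2 1.42.0, the replicate block, and each library left out. The members and lists were chosen with earlier results of these data known. The text names the 4 members, their opposite arms, miRNAs of the same seed, the 3 most alike profiles, neighbours in level and up to 4 of 10 MSC-typical miRNAs. Untreated replicates 1 and 2 were not shown to differ beyond sampling noise (chi-square 50.3 on 54 degrees of freedom, p = 0.617). By the same chi-square test over miRNAs the third untreated library was not shown to differ from the first (64.7 on 55, p = 0.174). By that chi-square test it differed from the second (82.5 on 56 degrees of freedom, p = 0.0121). The nicorandil pairs differed far more, with chi-squares of 235, 499 and 507 on 99, 97 and 94 degrees of freedom. The untreated libraries were kept as 3 samples, and averaging 1 and 2 was added as an alternative. Sequences are from RefSeq (GRCr8), where 686 of the 763 names matched.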

Additional observations from a re-analysis of the deposited data

How the results depend on the processing

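No member passed the threshold under any of the 19 alternatives. miR-222-3p and miR-221-3p kept a positive log2 fold change in all 17 alternatives that could test them, from 0.44 to 1.19 (adjusted p of 0.122 to 0.831) and from 0.38 to 1.70 (0.132 to 0.916). The sign of miR-22-3p turned in 6 of 19: -0.38 with library totals, -0.16 with median of ratios, -0.014 with upper quartile, -0.16 with edgeR's quasi-likelihood test after filterByExpr, -0.16 with DESeq2, and -5.8e-05 without nicorandil replicate 2. With a library left out it ran from -5.8e-05 to 0.15, miR-222-3p from 0.78 to 1.19 and miR-221-3p from 0.59 to 1.69. The log2 ratio of miR-221-3p to miR-222-3p turned to -0.21 without nicorandil replicate 2, -0.45 without untreated replicate 1 and -0.053 with untreated replicates 1 and 2 averaged, and ran from -0.45 to 0.95 with a library left out. Shares kept their direction or fell to a difference of 0 (miR-31a-5p without its 1 library).

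Against 17 higher and 9 lower miRNAs of all tested, the higher ones were 4 with library totals, 6 with median of ratios, 6 with upper quartile, 7 with edgeR after filterByExpr and 5 with DESeq2, and 6 to 15 with a library left out. The lower ones were 11 with library totals, which turns the balance of 17 to 9 into 4 to 11, 5 with a mean of at least 10 or with DESeq2, and 5 to 9 with a library left out. Fitting every listed miRNA was not possible, since most are at 0 throughout; the 250 with a read were used. The replicate block left 17 and 9, with log2 fold changes of 0.07, 0.96 and 1.18 for miR-22-3p, miR-222-3p and miR-221-3p (adjusted p = 0.851, 0.169 and 0.231), and exact sign-flip p of 0.25 for the shares of miR-22-3p and miR-222-3p, the smallest that 3 pairs allow. The numbers did not pair the samples, with correlations of deviations of 0.00883, 0.0437 and -0.03. TMM scaling and averaged replicates were chosen after seeing the data. Depth limits miR-221-3p, miR-222-3p and miR-31a-5p most, with 0 to 3 reads per untreated library.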
